A study of Tetranychus urticae with 4 samples.

Results

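A class of 249 genes of the two-spotted spider mite Tetranychus urticae stood between 16-fold and 32-fold higher in the dissected front body than in the intact body. They were chosen by their measured values: CPM (a gene's reads scaled to a library total of 1000000, with no other correction) of at least 15 in the proterosoma library, and a ratio above 16 and at most 32 between the proterosoma CPM and the mean whole-body CPM, each with 0.1 added. The 249 genes were 1.38% of the 18020 identifiers in the count table and 4.02% of the 6190 identifiers that reached 15 CPM in the proterosoma library. Since the ratio chose them, their enrichment is given as a description only, without a test.

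All libraries came from adult females of the London strain. There were 3 whole-body libraries, each made from 100 intact females, and 1 library made from the proterosomas dissected from 250 females. No treatment is named for either group, and both were pools of animals, so differences between single females were not measured. The labels do not say whether the whole-body pools were raised apart. The differences among whole bodies below therefore show only how far these libraries spread, which may be technical. The lone proterosoma library gives no replicate check on the front-body side. Total counts ran from 11630954 to 23647775 reads in the whole-body libraries and reached 19667380 reads in the proterosoma library.

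The proterosoma of a mite carries the mouthparts and the anterior legs. It holds the salivary glands, which make the proteins a spider mite injects into plant cells while feeding, and also the central nervous mass, the eyes, the silk glands of the palps and muscle. An intact body contains its own proterosoma, and most of its bulk is gut and ovary. A gene used only in a front-body organ is therefore diluted, not absent, in a whole-body library. In RNA from whole parts, fewer cells of a type and less RNA per cell cannot be told apart. The deposited files give identifiers only, and 0 of the 18020 identifiers were found in the RefSeq gene table. No gene below is therefore assigned a product, a tissue or a place among the known salivary proteins, and the labelled tissue was not checked against marker genes.

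The 249 genes together made up a large part of the front-body transcriptome. They took 20.8% of the proterosoma reads, against 1.04%, 0.776% and 0.979% of the reads of whole-body replicates 1, 2 and 3. The whole-body share was 0.931% ± 0.138 (SD, n = 3), so the summed share was 22.3 times as large in the proterosoma library. Whole-body replicate 2 had the lowest share of the whole-body libraries.

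**Figure D1:**
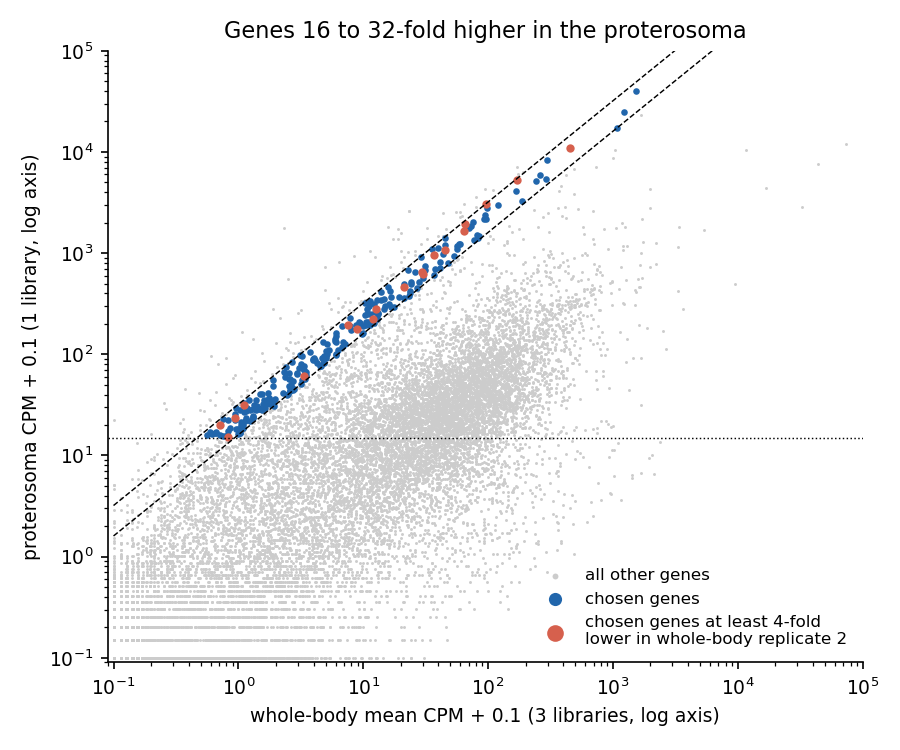
Each point is a gene, with the mean whole-body CPM + 0.1 over 3 libraries on the x axis and the proterosoma CPM + 0.1 of 1 library on the y axis, both on log axes; dashed lines mark ratios of 16 and 32 and the dotted line 15 CPM. The 249 chosen genes (blue and red) lie between the dashed lines by construction and reach from 15.2 to 39727 CPM in the proterosoma; the 19 red genes were at least 4-fold lower in whole-body replicate 2.

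Levels within the class spanned more than 3 orders of magnitude. The proterosoma CPM ran from 15.2 to 39727 with a median of 99.1, and its quartiles were 32.6 and 374. The whole-body mean ran from 0.465 to 1538 CPM with a median of 4.79. There were 126 genes under 100 CPM in the proterosoma library, and they held only 0.532% of its reads. The 88 genes from 100 to 1000 CPM held 3.06%, and the 35 genes of at least 1000 CPM held 17.2%. The class is thus a small set of very abundant transcripts followed by many of modest abundance.

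Most of the reads lay in a few genes. The 4 most abundant of the 249 took 9.29% of all proterosoma reads, the first 10 took 12.7% and the first 50 took 18.3%. The first 10 held 61.3% of the proterosoma reads of the whole class, and the first 100 held 95.9%. Ranked by proterosoma level over all genes, the class supplied 5 of the first 10, 15 of the first 50 and 27 of the first 100. Among the most abundant whole-body genes the class had 0 of the first 10, 2 of the first 50 and 3 of the first 100.

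The leading gene was tetur39g00530, with 39727 CPM in the proterosoma library and 1870, 1348 and 1397 CPM in whole-body replicates 1, 2 and 3. Its ratio was 25.8, and it alone made up 3.97% of the proterosoma reads. The second, tetur29g01360, had 24894 CPM in the proterosoma library and 1252, 1065 and 1375 CPM in the whole bodies, a ratio of 20.2. For both genes the whole-body libraries differed little next to the distance from the proterosoma.

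The third gene, tetur12g01560, had 17220 CPM in the proterosoma library against 1200, 995 and 1022 CPM in the whole bodies. Its ratio of 16.1 put it just above the lower limit of the class. The fourth, tetur31g00630, had 11028 CPM in the proterosoma library and 572, 104 and 684 CPM in whole-body replicates 1, 2 and 3. Here replicate 2 stood far below the other whole bodies, a pattern that returns in other genes of the class.

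The next 6 genes by proterosoma level were tetur06g00510, tetur03g09640, tetur11g04410, tetur06g00230, tetur10g00090 and tetur30g02200, with 8320, 5971, 5421, 5225, 5210 and 4141 CPM there. The whole-body levels of tetur06g00510 were 319.8, 276 and 295 CPM, close together, and its ratio was 28.0. In contrast, tetur06g00230 had 209.9, 33.8 and 265 CPM in whole-body replicates 1, 2 and 3, with replicate 2 again low, and a ratio of 30.8. The other 4 had ratios of 18.7 to 24.5 and whole-body levels between 129 and 308 CPM.

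**Figure D2:**
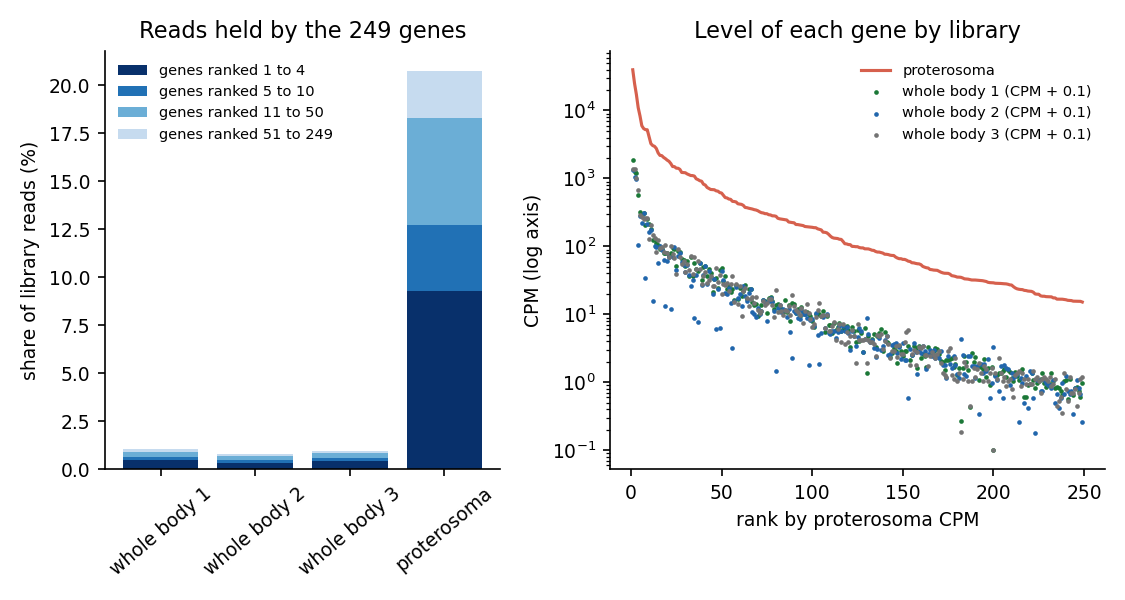
Left, share of the reads of each library (%, axis from 0) held by the 249 genes, stacked by their rank in the proterosoma library; right, CPM of each gene in the proterosoma (line) and CPM + 0.1 in the 3 whole-body libraries (points) on a log axis, ordered by that rank. The proterosoma bar reaches 20.8%, with 9.29% from the first 4 genes, while the whole-body bars stay between 0.776% and 1.04%; single points of whole-body replicate 2 fall below the band of the others.

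The limits of the class cut through a continuous range of ratios. Just above the ratio of 16 were tetur11g01990 at 16.02 and tetur05g04970 at 16.04, and just outside were tetur04g07830 and tetur09g00790 at 15.995 and 15.99. Just under the ratio of 32 were tetur53g00040 at 31.95 and tetur07g00150 at 31.8, and just outside were tetur38g00060 at 32.1 and tetur21g01590 at 32.1. At the abundance limit, tetur14g00090 was inside with 15.2 CPM and tetur03g06950 with 15.6 CPM, while tetur01g13950 with 14.9 CPM and tetur05g08390 with 14.5 CPM were outside.

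Counting error was small for the abundant genes and wide for the rare ones. On the ratio of pooled rates, the exact 95% counting interval lay wholly between 16 and 32 for 135 of the 249 genes. Its lower bound was above 16 for 185. This pooled ratio sums the reads of the whole-body libraries, so it is not the ratio that chose the class. For the abundant gene tetur12g01560 it was 15.6, with an interval of 15.46 to 15.75, where the class ratio was 16.1. A gene can therefore miss these limits without a large counting error. Without molecular identifiers in the reads, such intervals describe counting error alone. Against each whole-body library taken singly, 119 genes kept a ratio between 16 and 32 in all 3, and every one of the 249 was over 8-fold above its highest whole-body library. The lowest such ratio was 8.03, for tetur04g01700.

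In the authors' deposited DESeq2 table, made from these same libraries, log2 fold changes of the 249 genes ran from 2.08 to 5.65 with a median of 4.90. The median standard error there was 0.28. Those folds rest on the contrast that chose the genes, so they are no separate support for the enrichment. Scaling matters for who belongs to the class. With TMM scaling, which gave the proterosoma library a factor of 0.758 and the whole bodies 1.07 to 1.13, 369 genes met the same limits and 149 of them were among the 249. The class is thus defined on library-size scaling.

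The whole-body libraries were then compared with each other over the 249 genes. The rule used their mean, so a library with a low or high value for a gene had a part in choosing that gene. Counts for a class chosen without replicate 2 are given below. The coefficient of variation over the 3 whole-body libraries (SD over mean of the CPM) had a median of 16.5% and quartiles of 10.2% and 30.95%. Over all 12698 genes with at least 20 whole-body reads, a minimum that all 249 passed, the median was 8.95%. The 9843 of those genes at whole-body levels between the 5th and 95th percentile of the class had a median of 9.49%, with a median of 696 whole-body reads against 236 for the class, and fewer reads give a larger coefficient. By comparison, the 8 to 16-fold genes, 362 in number, had a median of 13.7% with a median of 254 reads, and the 32 to 64-fold genes, 108 in number, had 24.0% with 222 reads. These medians describe the lists and were not tested against each other.

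Some genes hardly moved between whole bodies. In the better covered part of the class, 171 genes with 100 whole-body reads or more, tetur21g01890 had 2.41, 2.43 and 2.49 CPM in replicates 1, 2 and 3, with 57.5 CPM in the proterosoma library. The gene tetur15g02250 had 3.93, 3.804 and 3.78 CPM, and tetur01g11910 had 16.1, 16.02 and 15.5 CPM. Their coefficients of variation were the lowest of those 171. The highest belonged to tetur17g00700, tetur49g00080 and tetur11g01360, all 3 of which differed mainly in replicate 2.

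Replicate 2 was the lowest whole-body library for 123 of the 249 genes, or 49.4%, and for 33.5% of all genes with at least 20 whole-body reads. Replicate 2 lay at least 2-fold below both other whole bodies for 24 of the 249 genes (9.64%), where the share over all such genes was 1.47%. It lay at least 2-fold above both others for 4 of the 249, where the background was 0.331%. Among these 4 were genes with only 0, 5 and 12 reads outside replicate 2. They met the minimum of 20 reads only through replicate 2 itself, so that count is no support for a rise. Replicate 1 was at least 2-fold below both others for 0 genes of the class (background 0.181%) and that far above both for 1 gene (background 0.244%), tetur34g00080. Replicate 3 was that far below both others for 3 genes of the class (background 1.02%), tetur01g12840, tetur14g03460 and tetur01g09690, and that far above both for 1 gene (background 0.488%), tetur21g03410. These single genes were named after their values were seen.

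Each whole-body library was tested against the others with edgeR's quasi-likelihood test across all 12228 genes that passed its expression filter, 241 of the 249 among them. For replicate 2, 18 genes of the class were called lower at an adjusted p under 0.05, or 7.47% of the 241, where 1.32% of all tested genes were called lower. A further 4 genes of the class were called higher, or 1.66%, where the background was 0.221%, but 3 of these 4 passed the expression filter only through replicate 2 itself, so that count is no support for a rise. When the class was chosen on the other 2 whole-body libraries, a setting added after the data were seen, 20 of its 239 tested genes were called lower in replicate 2 and 0 were called higher. For replicate 1, 0 genes of the class and 0% of all genes were called by edgeR in either direction, and 7 of the 241 had an unadjusted p under 0.05 (2.90%, against 1.95% of all tested genes). The DESeq2 Wald test also called 0 genes of the class for replicate 1, and 0.00647% of all genes with a read. For replicate 3, edgeR called 0 genes of the class, where 0.00818% of all genes were called higher and 0% lower, and 32 of the 241 had an unadjusted p under 0.05 (13.3%, against 8.95% of all). DESeq2 called 1 gene of the class for replicate 3, and 0.175% of all genes with a read. Each of these tests sets 1 library against 2, with 1 residual degree of freedom. The lone library is assumed to vary like the others, so the p-values compare these libraries and draw mostly on the spread shared across genes. That shared spread counted as 3.26, 16.5 and 5.03 degrees of freedom for replicates 1, 2 and 3, so the tests differed in power. Testing replicate 1 or 3 leaves replicate 2 among the reference libraries. For tetur01g00940, low in replicate 2, the standard error of the log2 fold was 1.09, 0.18 and 0.79 for replicates 1, 2 and 3. The test counts alone therefore do not show that replicates 1 and 3 did not depart from the others.

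**Figure D3:**
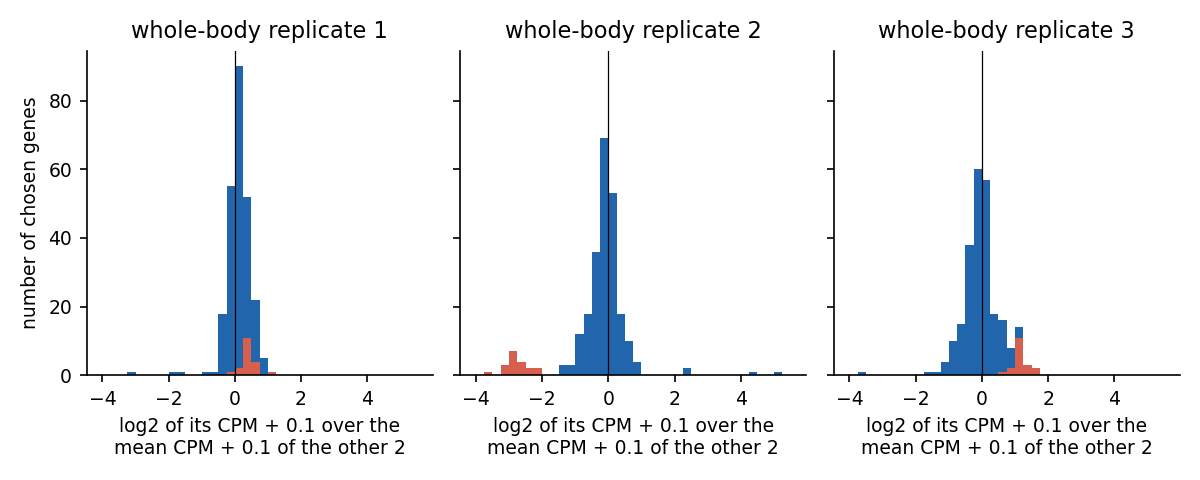
Number of the 249 genes (y axis) by the log2 ratio of CPM + 0.1 in one whole-body library to the mean CPM + 0.1 of the other 2 (x axis), in a panel for each replicate. In the panel of replicate 2, 19 genes (red in all panels) lie apart between -3.62 and -2.07 and no gene lies between -2 and -1.5.

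The genes that were low in replicate 2 formed a group of their own in the class. Ordered by the log2 ratio of replicate 2 to the mean of replicates 1 and 3, 19 genes lay between -3.62 and -2.07, the next gene lay at -1.46, and 0 genes lay between -2 and -1.5. This split was seen in the values and is a description. Of the 19 genes, 4 had only 30 to 47 whole-body reads each, whereas the other 15 had at least 153.

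In the 15 of them that had 100 whole-body reads or more, the mean of replicates 1 and 3 was 5.79 to 12.3 times the level in replicate 2, with a median of 7.0. The 19 genes held 0.132% and 0.163% of the reads of whole-body replicates 1 and 3, 0.0219% of replicate 2 and 2.77% of the proterosoma library. Summed over the 19 genes, the CPM of the proterosoma library was 21.0 times that of replicate 1, 17.0 times that of replicate 3 and 127 times that of replicate 2. Set against replicate 2 alone, 18 of the 249 genes were over 64-fold higher in the proterosoma library, and against replicate 1 or 3 alone 4 and 3 genes were.

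Replicates 1 and 3 also differed in a shared direction in these genes, though by far less. Of the 19 genes, 18 were higher in replicate 3 than in replicate 1, with a median ratio of 1.302. Of the other 230 genes, 89 were higher in replicate 3, with a median ratio of 0.924. This difference was seen after the group had been picked and was not tested.

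Values of single genes show the pattern. The gene tetur07g00150 had 122.8, 15.6 and 149 CPM in whole-body replicates 1, 2 and 3 and 3050 CPM in the proterosoma library. In replicate 2 it was lower by 3.11 on the log2 scale in the edgeR fit. The gene tetur03g03740 had 79.5, 11.7 and 102 CPM in the whole bodies and 1657 CPM in the proterosoma library. It was lower by 2.94 on the log2 scale in replicate 2. In both genes replicate 2 lay well outside the range of the other whole bodies, and the proterosoma far above all 3.

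At lower levels, tetur01g01000 had 23.9, 3.16 and 36.8 CPM in the whole bodies and 460 CPM in the proterosoma library. Its log2 fold in replicate 2 was -3.24. The largest step belonged to tetur49g00080, with 13.6, 1.38 and 22.4 CPM in the whole bodies and 278 CPM in the proterosoma library. It was lower by 3.67 on the log2 scale in replicate 2. The gene tetur11g01360 rested on few reads, with 79, 6 and 68 in whole-body replicates 1, 2 and 3 and 1193 in the proterosoma library. It was lower by 3.16 on the log2 scale in replicate 2. This gene passed the expression filter through replicates 1 and 3 and not through replicate 2. In each of these genes replicate 2 was the lowest whole body and replicate 3 the highest.

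The abundant genes tetur31g00630 and tetur06g00230 belong to the same group, with log2 folds of -2.58 and -2.80 in replicate 2. Without the 19 genes, the share of whole-body reads in the remaining 230 genes was 0.825% ± 0.0768 (SD, n = 3), against 0.931% ± 0.138 for the class. Their median coefficient of variation was 15.2%. The 19 genes thus accounted for part of the spread of the summed share, and the spread of a typical gene was little changed without them.

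**Figure D4:**
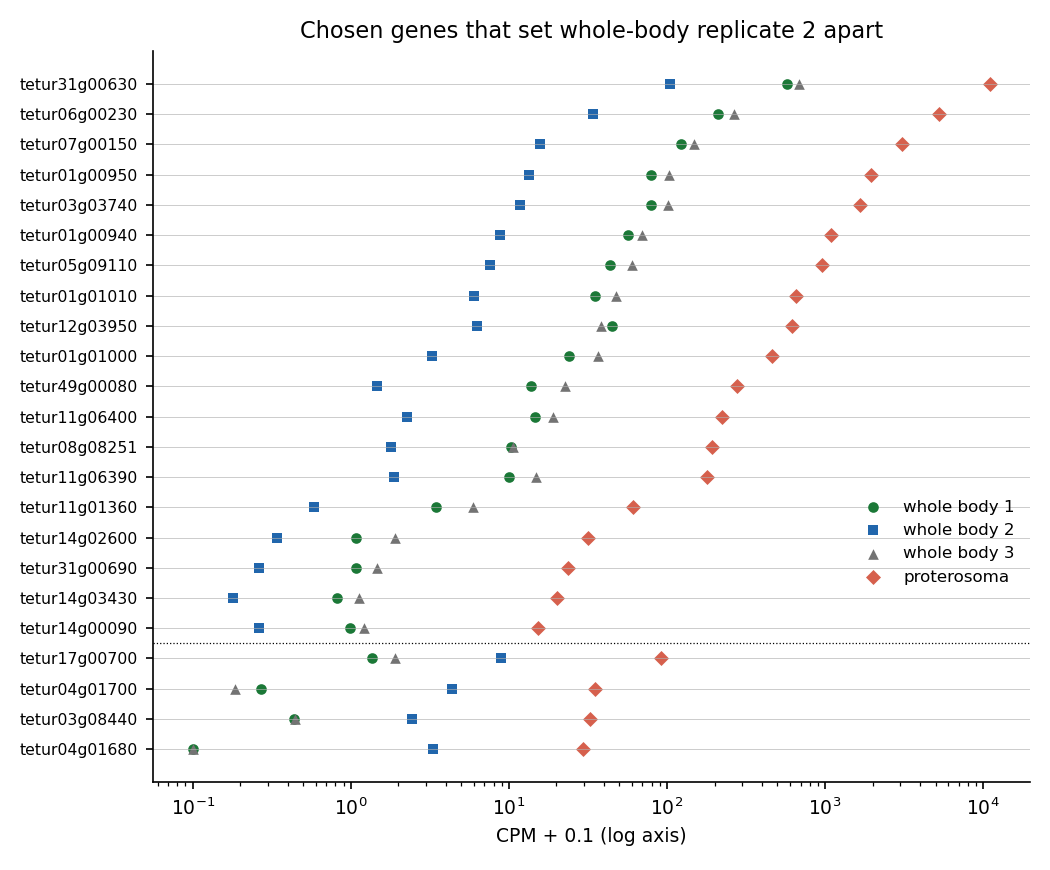
CPM + 0.1 (log x axis) in each of the 4 libraries for the 19 genes at least 4-fold lower in whole-body replicate 2 (above the dotted line, ordered by proterosoma level) and for the 4 genes at least 2-fold above both others in it (below the line). Replicate 2 (squares) lies 4.21 to 12.3 times below the mean of replicates 1 and 3 in the 19 genes, from 15.2 to 11028 CPM in the proterosoma.

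The low level in replicate 2 lowers the whole-body mean and so raises the ratio that chose the class. When the class was chosen anew on replicates 1 and 3 alone, 248 genes met the limits, 215 of them among the 249. Of these 248 genes, 19 were again at least 4-fold lower in replicate 2, or 7.66%, and 11 of them were among the first 19. The share is therefore as large in a class that replicate 2 had no part in choosing. Over all 12698 genes with at least 20 whole-body reads, 50 were at least 4-fold lower in replicate 2, or 0.394%.

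Those 50 genes were not spread evenly over the ratios. However, replicate 2 has a part in each ratio, and a low value in it moves a gene to a higher ratio. The class held 19 of the 50, which is 38.0% of them and 7.63% of the class. The 32 to 64-fold genes held 13, or 13.1% of the 99 with enough reads, and the 8 to 16-fold genes held 5, or 1.38%. Among the 5564 genes with a ratio of at most 0.5 there were 9. In all, 38 of the 50 were over 8-fold higher in the proterosoma library with at least 15 CPM there. The shares of the 3 classes were not tested against each other. Those of the 8 to 16-fold and 32 to 64-fold genes were not worked out without replicate 2.

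Another 4 genes of the class went the opposite way in replicate 2. The gene tetur04g01680 had 0, 40 and 0 reads in whole-body replicates 1, 2 and 3 and 573 reads in the proterosoma library. Against the 3 reads that a count of 0 allows, it was at least 25.5-fold higher in replicate 2 than in replicate 1 and at least 12.6-fold higher than in replicate 3. The gene tetur04g01700 had 4, 53 and 1 reads in the whole bodies and 691 in the proterosoma library. Nearly all whole-body reads of these genes thus came from replicate 2.

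The gene tetur03g08440 had 8, 29 and 4 whole-body reads and 641 proterosoma reads. The gene tetur17g00700 had 30, 109 and 21 whole-body reads and 1811 proterosoma reads. All 4 genes were rare in whole bodies, with 41 to 160 whole-body reads in all. Set against replicate 2 alone, their ratios were only 8.03 to 13.4, below the limit of the class, so their place in it rests on the low counts of replicates 1 and 3 and they are given as values only.

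The identifiers contain a scaffold and a serial number, and 90.3% of consecutive identifiers on a scaffold are 10 apart. Taken in that order, which was not checked against an annotation, the 249 genes lay on 46 of the 428 scaffolds listed. Scaffold 1 had 23 of them, scaffold 6 had 17 and scaffold 3 had 16, out of 1585, 607 and 945 listed identifiers. Scaffold 30 had 9 of 230. The class was thus spread over many scaffolds.

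Next to another gene of the class were 26 of the 249, or 10.4%, against 10.8% of the 8 to 16-fold genes next to one of their own class and 16.7% of the 32 to 64-fold genes. They made 12 runs of consecutive identifiers, 11 of them pairs and 1 a run of 4. With a neighbour of any kind over 8-fold higher and at least 15 CPM were 52 of the 249 genes (20.9%), against 10.3% of all 6190 genes that reached 15 CPM there. The 425 other genes next to the class that had any read had a median ratio of 0.790, so most of the class stood beside genes that were not enriched. How reads with several possible origins were counted is not stated in the labels. Counts of adjacent genes that are near-identical copies are therefore uncertain.

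The run of 4 was tetur14g00080, tetur14g00090, tetur14g00100 and tetur14g00110. Their proterosoma levels were 206, 15.2, 24.5 and 142 CPM and their ratios 16.7, 18.6, 18.7 and 24.0. The neighbour tetur14g00070 missed the class with a ratio of 15.8, and 2 places past the run tetur14g00130 missed it with 12.3 CPM at a ratio of 18.0. A further gene of the class, tetur14g00150, lay 4 places past the run. In this stretch tetur14g00090 was one of the 19 genes low in replicate 2, with 21, 2 and 13 whole-body reads, but the others were not.

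**Figure D5:**
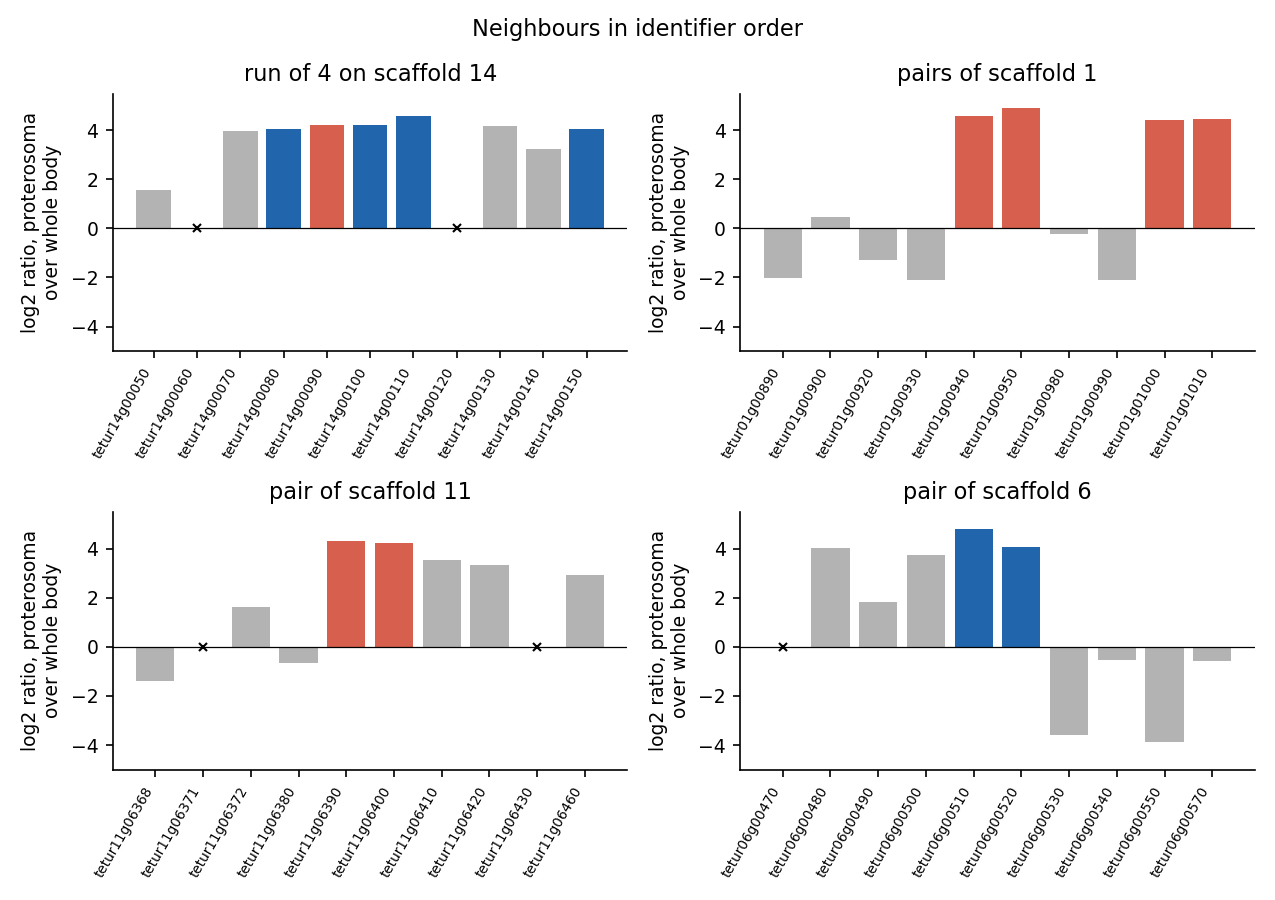
Log2 ratio of proterosoma to whole-body mean (CPM + 0.1, y axis) for genes in identifier order around 4 runs; blue and red bars are genes of the class, red those at least 4-fold lower in whole-body replicate 2, grey bars other genes, and crosses genes with no read in any library. On scaffold 1 the 4 red genes are parted by 2 grey genes with ratios under 1, and on scaffold 14 the run of 4 follows tetur14g00070, which missed the class with a ratio of 15.8.

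On scaffold 1, the pairs tetur01g00940 with tetur01g00950 and tetur01g01000 with tetur01g01010 lay close together, and all 4 genes were low in replicate 2. The proterosoma levels of the first pair were 1084 and 1959 CPM and those of the second 460 and 657 CPM. The log2 ratios of replicate 2 to the other whole bodies were -2.84, -2.78, -3.23 and -2.78. Between the pairs lay tetur01g00980 and tetur01g00990, with ratios of 0.862 and 0.232 and log2 values for replicate 2 near 0. The pattern thus stopped and resumed within a few identifiers.

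A further pair of this kind was tetur11g06390 with tetur11g06400, at 178 and 224 CPM in the proterosoma library and with log2 ratios of -2.72 and -2.88 in replicate 2. The next identifier, tetur11g06410, was 11.7-fold enriched but had a log2 value of -0.09 in replicate 2. The gene tetur03g03740 had a neighbour outside the class, tetur03g03730, with 2573 CPM in the proterosoma library, a ratio of 46.2 and a log2 value of -2.79 in replicate 2. In all, 8 of the 19 genes sat next to a gene at least 4-fold lower in replicate 2, and the 19 lay on 11 scaffolds. The share of all genes, or of equally enriched genes, with such a neighbour was not worked out. The count is therefore a description only.

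The genes that were high in replicate 2 were also partly close. Between tetur04g01680 and tetur04g01700 lay a single identifier, tetur04g01690, with 0 reads in all libraries. The gene tetur03g08440 stood beside tetur03g08450, which had a ratio of 772 and 70, 22 and 22 whole-body reads, with no rise in replicate 2.

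Of the other pairs, some differed widely in level and some were close. The abundant gene tetur06g00510 was followed by tetur06g00520 with 1413 CPM and preceded by tetur06g00500, a gene outside the class with 323 CPM and a ratio of 13.4. The gene tetur10g00090 was followed by tetur10g00100 with 801 CPM. Within the 11 pairs the higher gene had 1.08 to 30.7 times the proterosoma CPM of the lower, and 5 pairs were within 2-fold. The widest gap was between tetur01g01710, at 3256 CPM, and tetur01g01720, at 106 CPM. The closest pair was tetur10g03250 with tetur10g03260, at 45.8 and 49.6 CPM.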

How the data were processed

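RNA was sequenced in strand-specific libraries, per the labels' protocols. The authors deposited whole-number read counts for each gene. Per the submitters' processing notes, the tools were STAR 2.5.0b and HTSeq 0.6.0, with DESeq2 1.6.3. The build, gene models and strand option used for counting are not stated in these sources. The authors' deposited table gives, per its file header, a mean normalised signal, log2 fold changes with errors, a test score and p-values; only the log2 fold changes and their standard errors were used. The columns of read counts were matched by title, and 0 of them were left unused.

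CPM used column totals. A count of 0 allows up to 0.127, 0.243 and 0.258 CPM in whole-body replicates 1, 2 and 3 (3 reads). Each whole-body library was set against the others with edgeR 4.0.16 (quasi-likelihood, TMM, filterByExpr) in R 4.3.3. Log2 folds are given for single genes, without p-values, and counts of called genes for the class. DESeq2 1.42.0 was used for alternative size factors and for the Wald test. The proterosoma contrast chose the genes and was not tested.

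The members and all lists were chosen with earlier results of these data known. Genes named by rule were the 10 most abundant in the proterosoma, up to 3 longest runs and the 2 on each side of each limit. They also included the 3 most and 3 least variable with at least 100 whole-body reads. The last were up to 5 of the largest edgeR log2 folds in replicate 2 in each direction, among genes under an adjusted p cutoff. Others, including all neighbours, were chosen after their values were seen. Keyword lists could not be used, because 0 identifiers matched the RefSeq table of another assembly.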

Additional observations from a re-analysis of the deposited data

How the results depend on the processing

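Of 49 values under alternatives, 44 stayed within their limits (counts within 1.5 times; the whole-body share within 1 SD; the median coefficient of variation within 10% of its value). The class held 236 to 258 genes without one whole-body library, 194 with 1 CPM added in place of 0.1 (146 shared) and 369 with TMM scaling or DESeq2 size factors (149 and 141 shared). With each whole-body library alone, tried after the data were seen, it held 239 to 261. The limit on counts looks at number alone, not at which genes are shared. The median coefficient of variation was 13.2% to 16.6% without one library and 13.7% with at least 100 whole-body reads. Counts of genes called by the fits of 1 library against 2 are among the 49 values. Those with no gene called under either setting were taken as unchanged. The alternatives for these counts are not listed here, since a lone library has no spread of its own. Adjacent genes numbered 20 to 28 without one library and 36 with 1 identifier in between. Leaving a library out of a fit among whole bodies leaves no residual degrees of freedom, so it was not run. No paired analysis was possible because only 1 group has replicates. At 23 whole-body reads, the fewest in the class, counting error limits any comparison among whole bodies.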
